A study of Mus musculus with 12 samples.

Results

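Of the 12 libraries, 7 came from mice labelled as knockouts of estrogen receptor alpha (ERalphaKO). These 7 made up 1 experiment on estradiol in that genotype: 3 libraries from mice given 17β-estradiol (E2) and 4 from mice given placebo. They were selected by the genotype and agent in their labels, and all genes were considered. Every library was made from polyadenylated RNA of all cells of the mandibular condylar fibrocartilage, the fibrous and cartilaginous cap of the jaw joint. All mice were C57BL/6 females without ovaries, since the placebo groups were operated on too: ovariectomy at 16 weeks of age, a placebo or E2 pellet for 1 week, and harvest at 17 weeks. The E2 pellet contained 0.01 mg for release over 60 days, and the dose absorbed in the week was not stated. Wild-type (WT) mice with the same surgery and pellets gave the remaining libraries, 2 under placebo and 3 under E2. The sources used here do not give which part of the receptor gene was removed, in which cells, or whether a library held 1 animal or a pool. P-values therefore cover only the spread between these samples.

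Estradiol enters cells and binds estrogen receptors alpha and beta, transcription factors of the nuclear receptor family that attach to estrogen response elements or to other DNA-bound factors. A separate membrane receptor coupled to G proteins, GPER, also binds estradiol and acts through kinases. In cartilage and bone, estrogens restrain bone resorption and limit growth of cartilage. The comparison addressed what remained of the response in ERalphaKO mice.

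The placebo libraries held 16.5 to 25.2 M counts, and E2 replicates 1 to 3 held 16.3, 9.7 and 19.9 M. Several of them stood apart in the RNA of other tissues. Summed over the skeletal muscle marker genes, of which 23 of 24 were tested, placebo replicates 1 to 4 reached 125, 1713, 9444 and 1522 CPM, the field's unit for a count relative to the scaled library total, and the 3 E2 libraries 118 to 200 CPM. Granulocyte markers (18 of 19 tested) summed to 2004 to 20041 CPM under placebo, highest in replicate 3, and to 1641 to 10269 CPM under E2, highest in replicate 1. B lineage markers (12 of 12 tested) summed to 147 to 367 CPM under placebo and to 212, 23.3 and 75.9 CPM in E2 replicates 1 to 3. None of these 3 lists had a tested member without counts in all 7 libraries. The ribosomal RNA gene Rn45s also varied, with 38800, 16900, 12000 and 29400 CPM under placebo and 28500, 40100 and 25100 CPM under E2. The first principal component took 50.1% of the variance and ran from 85.0 in placebo replicate 3 to -63.4 in E2 replicate 2, and 14 granulocyte and 8 muscle markers were among its 50 leading genes. In such bulk tissue, fewer cells of a type and less RNA per cell cannot be told apart.

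No gene passed the edgeR test for an E2 effect in ERalphaKO. Of 14832 genes tested with its quasi-likelihood method, 0 were higher (0%) and 0 lower (0%) at a Benjamini-Hochberg adjusted p under 0.05. The smallest adjusted p was 0.848, for Nsg2. Without adjustment 220 genes (1.48%) were higher and 626 (4.22%) lower at p under 0.05. The libraries of the 2 groups did not overlap for 383 genes higher under E2 (2.58%) and 458 lower (3.09%). DESeq2 on the same counts called 1 gene higher (0.00674%) and 4 lower (0.027%). The authors' deposited table for these libraries called 3 genes higher (0.0165%) and 6 lower (0.0329%) of 18235 with an adjusted p.

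The precision of the measurement sets what this count of 0 covers. The 95% interval of the fold change lay wholly within 2-fold in either direction for 11817 genes (79.7%). The interval reached a median of 0.325 log2 units, or 1.25-fold, to each side of the estimate. This distance was 1.20 for the 1291 genes under 1 CPM and 0.23 for the 1719 genes at 100 CPM or more. Below 1 CPM only 7.4% of genes had an interval within 2-fold, where the estrogen targets Greb1 and Pgr also stood in ERalphaKO.

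**Figure D1:**
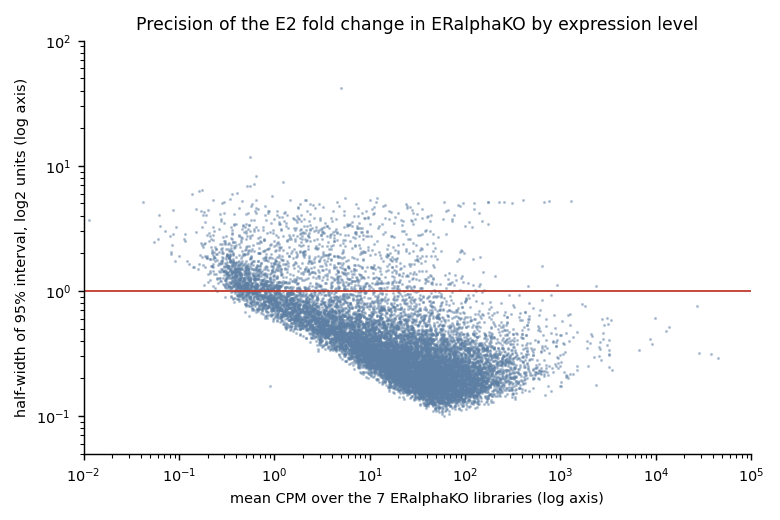
Each point is a tested gene, with its mean CPM over the 7 ERalphaKO libraries on the x axis (log scale) and, on the y axis (log scale), the distance in log2 units from its E2 fold change to either end of the 95% interval. The red line marks a distance of 1, or 2-fold, and genes at 10 to 100 CPM mostly lie below it, with a median of 0.25.

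Among the receptors themselves, Esr1, the gene of receptor alpha, kept a low transcript level in both groups. Placebo replicates 1 to 4 had 3.65, 5.68, 4.03 and 5.15 CPM, and E2 replicates 1 to 3 had 5.66, 5.78 and 4.55 CPM. The WT libraries had 17.5 and 14.2 CPM under placebo and 10.6, 8.52 and 12 CPM under E2, all above every ERalphaKO library. Within ERalphaKO the groups overlapped, with a log2 fold change of 0.20 ± 0.19 (SE). Gene counts of this kind do not show whether the remaining transcript encodes a working receptor.

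Esr2, the gene of receptor beta, was close to absent: 2, 1, 0 and 2 counts under placebo and 0, 0 and 4 under E2, too few to be tested. Gpr30, the older symbol of the GPER gene, was measured well. Its placebo libraries had 11.1, 16.9, 11.4 and 11.9 CPM and its E2 libraries 10.8, 16.0 and 17.5 CPM, groups that overlapped (0.20 ± 0.20). Of 10 tested steroid and estrogen-related receptor genes, 1 had an unadjusted p under 0.05 (5.7% of all genes). That gene was Esrrg, an orphan receptor of oxidative tissues, at 0, 1.35, 9.10 and 1.57 CPM under placebo and 0, 0.105 and 0.256 CPM under E2 (-4.50 ± 1.74). Its highest placebo value was in replicate 3, the library with the most muscle marker RNA, and its 2 groups shared the value 0. The glucocorticoid receptor gene Nr3c1 (0.09 ± 0.14) and the vitamin D receptor gene Vdr (0.03 ± 0.21) showed log2 fold changes within their errors.

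Coregulators, the proteins that receptors recruit to activate or silence genes, were held close to their placebo level. The 14 tested had a median log2 fold change of -0.0008 against 0 over all genes, with 0 of 14 at an unadjusted p under 0.05. The corepressor gene Ncor1 had 190, 176, 162 and 178 CPM under placebo and 184, 161 and 179 CPM under E2. Its interval of -0.18 to 0.15 log2 units was among the narrow ones. The coactivator gene Ncoa1 gave 0.03 ± 0.08. Without 1 library each the median ran from -0.06 to 0.02. The 17 genes of membrane and GPER-linked signalling had a median of 0.04 and likewise 0 members at that p, with 0.04 ± 0.42 for the growth factor gene Ctgf and 0.14 ± 0.14 for the caveolin gene Cav1.

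The genes that E2 regulated in WT tissue were then read in the ERalphaKO libraries. In WT, 68 genes passed the edgeR test, 55 higher (0.371%) and 13 lower (0.0876%). The WT values chose these genes, so the WT medians given below are not independent of that choice. In ERalphaKO 0 of the 68 passed, by edgeR or by DESeq2, and 6 had an unadjusted p under 0.05 (background 5.7%), 4 in the WT direction and 2 against it. The 55 WT-higher genes, with a median log2 fold change of 1.52 in WT, had a median of 0.08 in ERalphaKO and the same sign in 36 of 55. The 13 WT-lower genes, with a median of -1.17 in WT, had a median of 0.03 in ERalphaKO and the same sign in 5 of 13. Over all genes 50% were above 0 and 50% below. The ERalphaKO interval stayed within 2-fold for 53 of the 68.

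Promoter sequence was read for these genes because a direct receptor target may carry its element near the start. RefSeq windows of 300 bases on mouse build GRCm38.p6, from 250 before to 50 after a transcript start, were found for 48 of the 68. The files were made on build mm9, whose coordinates were not used. The full palindrome GGTCANNNTGACC, where N is any base, occurred in 0 of their 60 windows and in 23 of 32851 windows of all genes (0.07%). At that rate 60 windows would rarely hold it, so the 0 says nothing about these genes. Sequence outside the windows was not read. A single arm of the palindrome, GGTCA or its complement TGACC, occurred in 24 of the 60 windows (40.0%) and in 40.483% of all windows, overlaps with the full palindrome included. Stretches of 55 bases, read in the direction of transcription, are shown for 2 genes with the arm in capitals. These are Greb1, which gave the clearest difference between genotypes, and Ifitm5, the only gene that DESeq2 called higher with E2 in ERalphaKO. Trpc6, another gene whose difference between genotypes passed, had 0 arms before its start. The 2 Greb1 stretches lie on the minus strand at chr12:16800945-16800999 and chr12:16757404-16757458, upstream of 2 alternative starts, and that of Ifitm5 on the minus strand at chr7:140950270-140950324, from 81 to 27 bases before its start.
Greb1, first start: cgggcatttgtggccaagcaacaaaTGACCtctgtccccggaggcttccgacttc
Greb1, second start: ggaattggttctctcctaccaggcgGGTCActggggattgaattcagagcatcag
Ifitm5: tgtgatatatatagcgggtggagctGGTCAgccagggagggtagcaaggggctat
Each stretch shows a single arm, and the second Greb1 window held 2 arms before its start, of which the first is printed. A match of 5 letters describes the sequence and does not show that a receptor binds there.

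Greb1, an estrogen-induced gene whose product assists the receptor, remained near the detection limit in ERalphaKO. The placebo libraries had 0.120, 0.180, 0.155 and 0.201 CPM (2, 4, 4 and 5 counts) and the E2 libraries 0.482, 0.315 and 0.204 CPM (8, 3 and 4 counts). All 3 E2 values lay above all 4 placebo values, with 0.204 against 0.201 CPM in the closest pair, and the log2 fold change of 0.97 ± 0.48 did not pass (unadjusted p = 0.0677). In WT the same gene went from 0.117 and 0.256 CPM to 26.3, 17.4 and 25 CPM. The difference between the genotypes in the E2 effect was -5.85 ± 0.56 log2 units (edgeR interaction test, adjusted p = 0.00862).

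The interaction test passed for 7 further genes of the 68. Gbp8, an interferon-inducible guanylate-binding GTPase, stood at 0.958, 0.631, 1.28 and 0.563 CPM under placebo and 0.964, 0.736 and 0.869 CPM under E2 in ERalphaKO, fully overlapping, while the WT E2 libraries had 29.3, 15.6 and 15.6 CPM (difference -4.89 ± 0.61). Pi15, a secreted peptidase inhibitor, had 0.598, 0.406, 1.08 and 1.09 CPM under placebo and 1.33, 1.26 and 0.511 CPM under E2 in ERalphaKO, against 71.1, 49.5 and 59.9 CPM in the WT E2 libraries (difference -4.29 ± 0.56). Trpc6, a calcium-permeable channel gene, had 1.32, 1.53, 2.83 and 2.09 CPM and 2.05, 1.37 and 1.84 CPM, against 58.4, 42.0 and 75.6 CPM in WT under E2 (difference -4.21 ± 0.49). For all 3 genes the ERalphaKO libraries of both groups lay below every WT E2 library. Gbp4 (-3.66), the matricellular protein gene Thbs1 (-2.01), the scaffold gene Whrn (-1.67) and the phosphate transporter gene Slc20a2 (1.31) also passed, and were named after their values were seen. Over all genes 0.0539% passed, and these were the same 8 genes. All 68 genes had an unadjusted p under 0.05 in this test (6.78% of all genes). The WT libraries that chose the 68 enter the test, so neither the count of 8 nor that of 68 is independent support.

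The number of passing interactions depended on single libraries and on the tool. DESeq2 called 48 of the 68, edgeR called 1 without ERalphaKO E2 replicate 2 and 16 without ERalphaKO placebo replicate 3, and 0 with the muscle or the B lineage marker level as a covariate. Without 1 WT library, settings added after seeing the data, edgeR called 0 (placebo replicate 1), 1 (placebo replicate 2), 7 (E2 replicate 1), 21 (E2 replicate 2) and 1 (E2 replicate 3), and the 8 genes were all among those called only in the setting without WT E2 replicate 2.

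**Figure D2:**
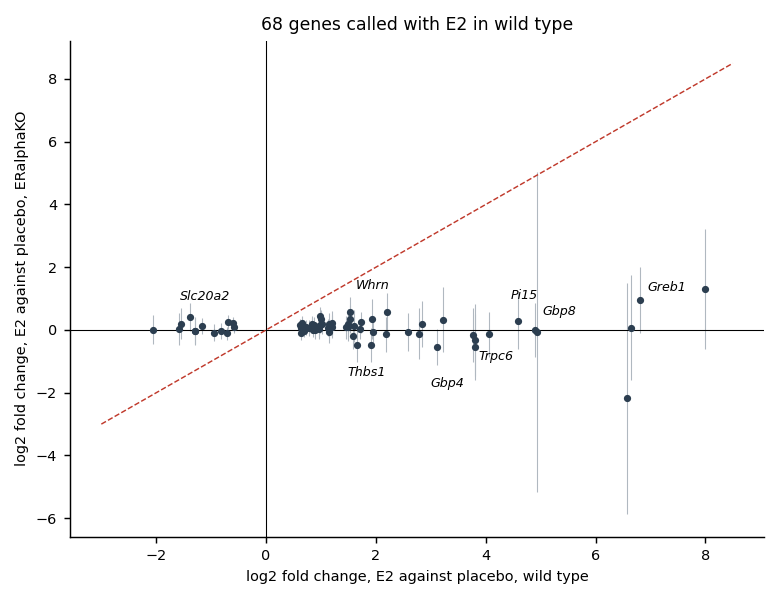
Each point is 1 of the 68 genes that passed with E2 in WT, with its log2 fold change in WT on the x axis and in ERalphaKO on the y axis, grey bars giving the 95% interval in ERalphaKO, the dashed red line equal effects, and names the 8 genes whose difference between genotypes passed. Most points lie near 0 on the y axis, with medians of 0.08 for WT-higher and 0.03 for WT-lower genes and Greb1 at 0.97. The interval stays within 2-fold for 53 of the 68.

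The other strong WT responders named here had overlapping groups in ERalphaKO or were too low to read. Mgl2, a macrophage lectin gene, had 1.71 to 7.32 CPM under placebo and 2.31 to 3.49 CPM under E2 in ERalphaKO (-0.31 ± 0.52). Limch1, which regulates contraction of the actomyosin cytoskeleton and was the most reduced gene in WT (-2.06), stood at 250, 216, 216 and 213 CPM under placebo and 260, 213 and 205 CPM under E2, a log2 fold change of 0.01 ± 0.21. Hunk (0.03 ± 0.23), Wfdc1 (-0.02 ± 0.20) and the pentraxin gene Ptx3 (-0.04 ± 0.19), all lower in WT, had overlapping ERalphaKO groups. D4Bwg0951e, also lower in WT, had 13.0, 19.3, 14.4 and 18.1 CPM under placebo and 29.5, 18.6 and 17.3 CPM under E2, overlapping groups with the highest value in E2 replicate 1 (0.42 ± 0.20). Akr1c14, an aldo-keto reductase gene that was higher in WT, gave 0.57 ± 0.27 with overlapping groups. The secreted neuronal protein gene Lgi2 (0, 1, 2 and 3 counts under placebo, 6, 0 and 2 under E2), the pacemaker channel gene Hcn4 (2 counts in all) and the kinase gene Ripk4 (at most 2 counts in a library) are given as counts only.

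Over all genes, 2.58% were higher and 3.09% lower without overlap of the groups. The same held for 6 of the 68 genes, 3 in the WT direction and 3 against it. Those in the WT direction were Greb1, Wnt4 and 2310046A06Rik (0.43 ± 0.13, unadjusted p = 0.00758). Those against it were Gbp4 (-0.54 ± 0.26), the complement inhibitor gene Cd59a (0.23 ± 0.08) and the metalloprotease gene Adam12 (0.24 ± 0.10). Wnt4 encodes a secreted Wnt ligand. Its placebo libraries had 22.2, 26.7, 23.6 and 25.1 CPM and its E2 libraries 31.8, 32.8 and 28.1 CPM, with no overlap (0.34 ± 0.14, unadjusted p = 0.0362), and it was 1.00 ± 0.17 in WT. Its difference between genotypes, -0.67 ± 0.22, did not pass (edgeR adjusted p = 0.559).

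A list of 20 genes known as estrogen-responsive in other tissues, of which 18 were tested, had a median of 0.00 log2 units, with 10 of 18 positive. At an unadjusted p under 0.05, 2 were higher (1.48% of all genes) and 0 lower (4.22%). In 4 of 18 all E2 libraries lay above all placebo libraries (2.58% of all genes). Beside Greb1 and Wnt4 those 4 were Bcl2, an inhibitor of apoptosis, at 30.7, 30.9, 29.7 and 33.3 CPM against 36.0, 33.9 and 35.6 CPM (0.17 ± 0.07), and Ramp3, a partner of the calcitonin receptor family, at 2.15 to 3.98 CPM against 4.52 to 5.72 CPM (0.60 ± 0.28). The growth factor gene Igf1 gave 0.00 ± 0.22. The lysosomal protease gene Ctsd gave -0.02, the corepressor gene Nrip1 0.01 and the cyclin gene Ccnd1 0.03. Pgr, the progesterone receptor gene, was under 0.121 CPM in every library.

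The genes with the smallest unadjusted p in each direction, among those whose groups did not overlap, are given as a description, since p and separation chose them. Ifitm5, a membrane protein of osteoblasts that takes part in mineralization, headed the higher ones. Placebo libraries had 33.3, 40.9, 35.1 and 35.8 CPM and E2 libraries 55.4, 50 and 49.9 CPM, 1.43-fold higher on average (0.51 ± 0.10, edgeR adjusted p = 0.848, DESeq2 adjusted p = 0.0456). Leaving out any 1 library kept its log2 fold change between 0.46 and 0.58. In WT the same gene gave 0.30 ± 0.12, also not passing, and the authors' deposited table gave 0.51 for ERalphaKO with an adjusted p of 0.0156.

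Next came Chn1, a regulator of the GTPase Rac, at 39.3, 53.0, 39.4 and 49.4 CPM under placebo and 67.3, 69.7 and 57.2 CPM under E2 (0.51 ± 0.12). Pltp, which transfers phospholipids between lipoproteins, had 74.4 to 82.4 CPM and 89.8 to 99.6 CPM (0.26 ± 0.06). The Wnt receptor gene Fzd8 (0.28 ± 0.07), the gene Arhgap29 (0.25 ± 0.06) and the cytoskeletal gene Dpysl2 (0.36 ± 0.09) followed. The differences were small: among the 15 genes named in this direction the log2 fold change ran from 0.17 for Pex5, a peroxisomal import receptor, to 0.63 for the small nucleolar RNA gene Snord96a. Snord96a had 35 to 77 counts per library, and overlapping genes may share counts. Beside Ifitm5, the authors' deposited table called 2 genes higher, the BMP antagonist gene Nbl1 (0.30 there) and the apelin receptor gene Aplnr (0.36 there), which edgeR and DESeq2 did not call. Nbl1 had 507 to 539 CPM under placebo and 617 to 670 CPM under E2, and Aplnr had 48.3 to 52.1 CPM and 63.6 to 66.3 CPM.

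In the lower direction Nsg2, a gene of neuronal endosomes, had 1.02, 1.62, 3.83 and 1.97 CPM under placebo and 0.361, 0.315 and 0.102 CPM under E2 (-3.06 ± 0.59, edgeR adjusted p = 0.848, DESeq2 adjusted p = 0.0437). All 4 placebo libraries were above the E2 libraries, with 17 to 99 counts against 2 to 6. Ptp4a3, a phosphatase gene linked to cell migration, had 62.9, 76.1, 93.7 and 53.9 CPM against 46.1, 33.7 and 38.2 CPM (-0.86 ± 0.19, DESeq2 adjusted p = 0.0456). The WT libraries of Ptp4a3 had 29.8 to 45.5 CPM, below all 4 ERalphaKO placebo libraries. Adcy7, an adenylyl cyclase of blood cells, had 53.9 to 68 CPM and 42.9 to 49.9 CPM (-0.41 ± 0.09), and Smarca4, the ATPase of a chromatin remodelling complex, 113 to 161 CPM and 88.9 to 108 CPM (-0.48 ± 0.12). The kinase gene Cdc7 (-0.76 ± 0.19), the DNA polymerase gene Pold1 (-0.44 ± 0.11), the helicase gene Pif1 (-1.33 ± 0.32) and the cohesin protector gene Sgol2 (-0.76 ± 0.19) were also among the 15 named in this direction.

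Several genes with very large negative values are known from striated muscle. Rbm24, a splicing regulator of muscle, had 4.19, 5.37, 13.6 and 2.98 CPM under placebo and 0.181, 0.210 and 0.0511 CPM under E2 (-5.53 ± 1.43), and was called by DESeq2 (adjusted p = 0.0339) and by the authors' deposited table. The muscle translation factor gene Eef1a2 had 0.958, 17.0, 133 and 20.7 CPM against 0.102 to 0.663 CPM. The muscle sodium channel gene Scn4a had 2.39 to 10.9 CPM against 0.105 to 0.723 CPM, and Itgb1bp2, also of muscle, 0.778 to 8.60 CPM against 0 to 0.204 CPM. The authors' deposited table called both of these, Nsg2 (-2.12) and LOC433374 (-2.13), a locus at 0.930 to 2.69 CPM under placebo and 0.105 to 0.241 CPM under E2, lower as well. In each of the 4 muscle genes placebo replicate 3 was highest, as it was for the summed muscle markers. Of the 23 muscle markers 22 had an unadjusted p under 0.05 in the lower direction (4.22% of all genes), with a median of -5.81. Without E2 replicate 3 the 22 became 9, and without E2 replicate 2 they became 15. Placebo replicate 1, at 125 CPM of summed markers, was in the range of the E2 libraries. In that library Rbm24 had 4.19 CPM, Scn4a 2.39, Eef1a2 0.958 and Itgb1bp2 0.778 CPM. The highest E2 values of these genes were 0.210, 0.723, 0.663 and 0.204 CPM in that order. The cause of these differences was not tested. With the mean level of the muscle markers, a list that holds none of these 4 genes, as a covariate, the log2 fold change was -4.17 for Rbm24, -1.55 for Eef1a2, -1.86 for Scn4a and -2.0 for Itgb1bp2.

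**Figure D3:**
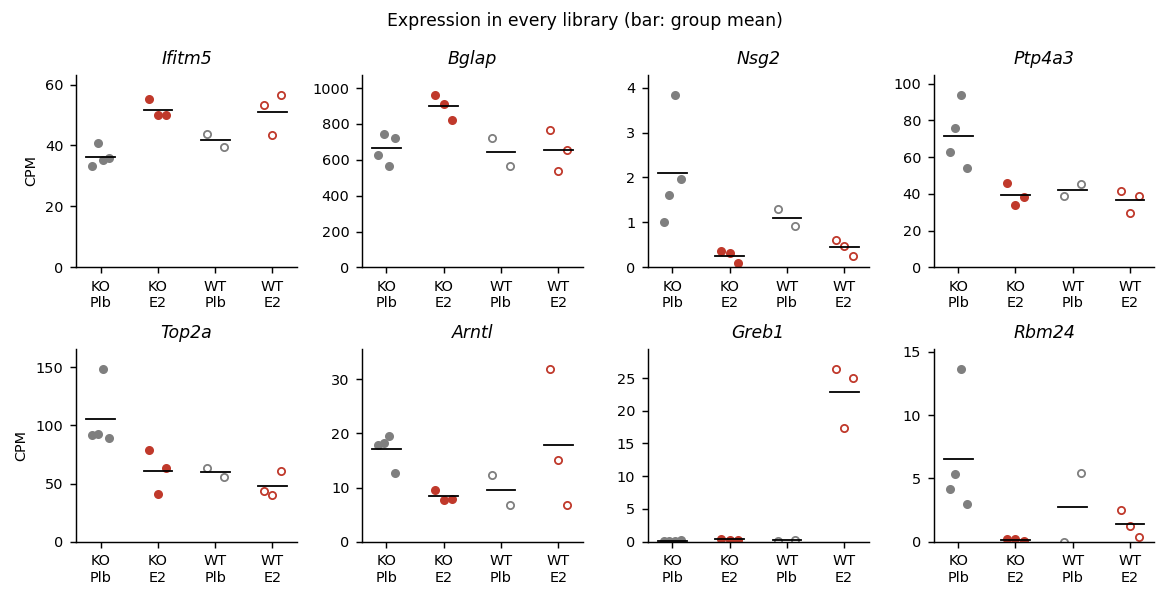
CPM of 8 genes in every library, with ERalphaKO (KO) as filled and WT as open circles, placebo (Plb) in grey, E2 in red and a bar at each group mean. Ifitm5 and Bglap were higher and Nsg2, Ptp4a3, Top2a, Arntl and Rbm24 lower in all 3 ERalphaKO E2 libraries than in the 4 placebo libraries, and Greb1 stayed under 0.5 CPM in ERalphaKO while its WT E2 libraries had 17.4 to 26.3 CPM.

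Bone-forming genes lay on the higher side. All 14 osteoblast and osteocyte markers had a log2 fold change above 0, with a median of 0.21, 3 of 14 higher at an unadjusted p under 0.05 (1.48% of all genes) and 2 with no overlap of the groups (2.58%). Bglap, one of the genes of osteocalcin, the vitamin K-dependent protein of bone matrix, had 628, 741, 565 and 720 CPM under placebo and 960, 909 and 822 CPM under E2 (0.44 ± 0.14). Its neighbour Bglap2 had 390, 399, 339 and 391 CPM against 529, 569 and 416 CPM (0.41 ± 0.14), and since these paralogs are nearly identical, reads may have been shared between them. Pdpn, a membrane protein of early osteocytes, gave 0.37 ± 0.16 with overlapping groups. The osteocyte genes Dmp1 (0.14 ± 0.24) and Sost (0.10 ± 0.31), an inhibitor of Wnt signalling, were within their errors. Summed over the 14 markers, placebo libraries held 31775 to 46773 CPM and E2 libraries 46206 to 50058 CPM. Most of this sum came from the collagen gene Col1a1, which was also in the fibrous matrix list. It had 27000 to 40200 CPM under placebo and 39700 to 43600 CPM under E2, overlapping groups. Leaving out placebo replicate 3 gave a median of 0.17 with 13 of 14 positive, and leaving out E2 replicate 2 a median of 0.24 with 12 of 14, of which 1 had an unadjusted p under 0.05.

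Transcripts of growth factor pathways that act on bone and cartilage, antagonists included, showed small positive values. Pathway activity was not measured. Of 30 genes of the TGF-beta and BMP pathway 27 were above 0, with a median of 0.13. At an unadjusted p under 0.05, 0 were lower (4.22% of all genes) and 2 higher (1.48%). The higher ones were the ligand gene Bmp2, at 26.1, 30.1, 22.7 and 34.6 CPM against 43.4, 30.7 and 38.7 CPM (0.41 ± 0.15), and Smad1, a transducer of BMP signals, at 31.6 to 35.6 CPM against 38.8 to 41.0 CPM (0.22 ± 0.06). The groups overlapped for Bmp2 and not for Smad1. The antagonist gene Nog had 6.96 to 8.21 CPM against 8.43 to 9.88 CPM (0.28 ± 0.14), and the BMP target genes Id1 and Id3 gave 0.25 and 0.28. Without placebo replicate 3 the median of the pathway was 0.07 with 23 of 30 positive, and without E2 replicate 3 it was 0.10 with 20 of 30. Without placebo replicate 2 there were 6 at an unadjusted p under 0.05.

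The bone resorption axis was likewise above 0 in 13 of 13 genes, with a median of 0.11 but 0 at an unadjusted p under 0.05. Tnfsf11, the gene of the osteoclast-inducing ligand RANKL, had 49.0, 58.7, 47.6 and 56.5 CPM under placebo and 63.7, 57.1 and 66.6 CPM under E2 (0.24 ± 0.13). Its decoy receptor gene Tnfrsf11b gave 0.02 ± 0.23, and the osteoclast enzyme genes Ctsk (0.06 ± 0.14) and Acp5 (0.11 ± 0.17) overlapped between the groups. Without E2 replicate 3 the count was 8 of 13 and the median 0.03, and without placebo replicate 1 they were 9 of 13 and 0.05. In the Wnt list 17 of 23 were above 0 (median 0.11), and Wnt4 alone had an unadjusted p under 0.05 (5.7% of all genes). The Wnt median was 0.05 without placebo replicate 3 and 0.06 without E2 replicate 2.

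Matrix genes of cartilage were spread between libraries more than between groups. Of 19 cartilage genes 16 were below 0, with a median of -0.18 and 0 at an unadjusted p under 0.05, but without placebo replicate 1 the median was 0.03 and 10 of 19 were above 0, and without E2 replicate 1 the median was -0.03. Col2a1, the main cartilage collagen gene, had 4530, 2920, 1840 and 2040 CPM under placebo and 1160, 2570 and 1650 CPM under E2 (-0.66 ± 0.49). The placebo library highest in Col2a1 was replicate 1, which was also highest in the cartilage oligomeric protein gene Comp (2690 CPM, -0.18 ± 0.34) and in the lubricin gene Prg4 (341 CPM, -0.42 ± 0.46). The 26 fibrous matrix genes had a median of 0.04, 14 of them above 0 and 0 at that p, but the median was -0.05 without placebo replicate 3 and 0.13 without E2 replicate 1. Their most abundant members, Col1a2 (0.25 ± 0.13) and Col1a1 (0.23 ± 0.14), encode the chains of type I collagen. Col1a2 had 38700, 46300, 33600 and 46700 CPM under placebo and 47900, 48800 and 50400 CPM under E2, without overlap. In WT the same genes went the other way (-0.41 ± 0.16 and -0.49 ± 0.17), and neither the WT effects nor the differences between genotypes passed (edgeR adjusted p = 0.494 and 0.493 for the differences). Decorin (Dcn), a collagen-binding proteoglycan, had 2680 to 3150 CPM against 3450 to 3510 CPM (0.22 ± 0.11).

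Proliferation genes stood lower under E2. All 25 cell cycle genes had a log2 fold change below 0, with a median of -0.55, 10 of 25 lower at an unadjusted p under 0.05 (4.22% of all genes) and 11 with no overlap of the groups (3.09%), and 0 passed after adjustment. Top2a, which untangles DNA, had 92.1, 92.4, 148 and 89.1 CPM under placebo and 79.2, 41.1 and 63.0 CPM under E2 (-0.78 ± 0.25). The proliferation marker gene Mki67 had 149, 115, 190 and 109 CPM against 87.3, 60.2 and 103 CPM (-0.75 ± 0.27), and the mitotic kinase gene Plk1 8.62 to 19.4 CPM against 3.26 to 8.31 CPM. Placebo replicate 3 was highest and E2 replicate 2 lowest in all 3 genes. Over the 25 genes the log2 fold change ran from -0.87 to -0.11.

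Marker RNA of blood-forming cells also differed between these libraries. Placebo replicate 3 had the most granulocyte marker RNA and E2 replicate 2 the least of both granulocyte and B lineage markers. Early granulocyte enzyme genes such as Elane (-4.39), Mpo (-3.84) and Prtn3 (-4.03) gave negative log2 fold changes with overlapping groups. Of the 18 granulocyte markers tested, 13 were below 0 and 5 above, with a highest value of 1.20. E2 replicate 1 had the second highest granulocyte level of the 7 libraries, and placebo replicate 3 the lowest B lineage level among placebo libraries. Without placebo replicate 3 the cell cycle median was -0.29 with 25 of 25 below 0 and 6 of 25 at an unadjusted p under 0.05, and without E2 replicate 2 it was -0.40 with 1 of 25. With the granulocyte level as a covariate it was -0.41 with 12 of 25, with the muscle level -0.43 with 3 of 25, and with the B lineage level, a setting added after seeing the data, -0.44 with 0 of 25. All 25 stayed below 0 in these settings other than the B lineage one, where 22 did. The cause of the lower cell cycle values was not tested.

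**Figure D4:**
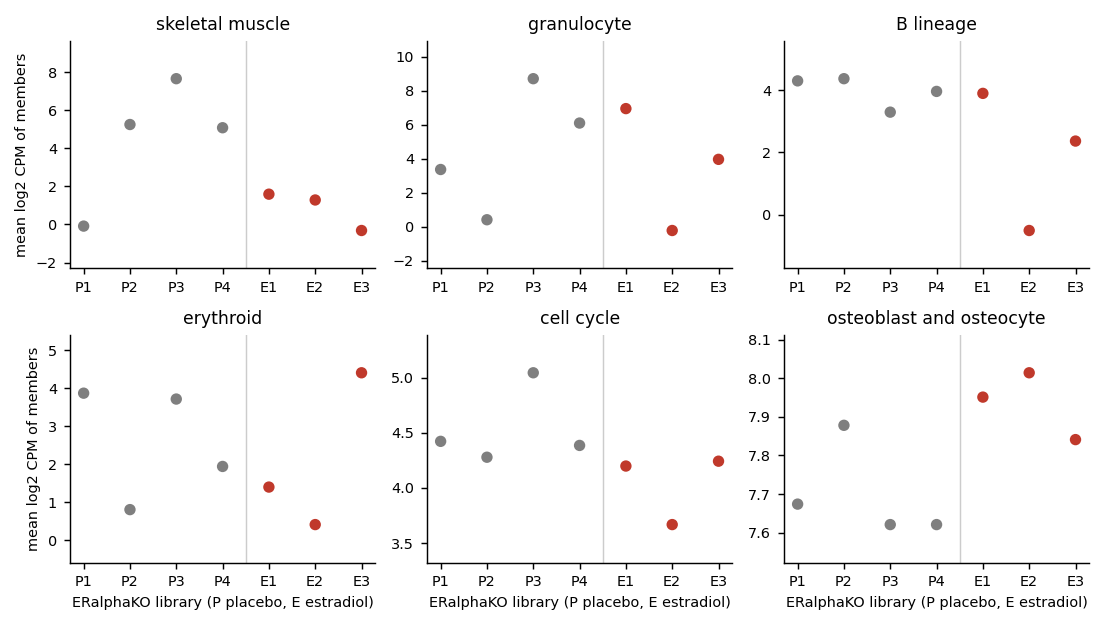
Mean log2 CPM over the tested members of 6 gene lists (y axis, own scale per panel) in each ERalphaKO library, placebo replicates P1 to P4 in grey and E2 replicates E1 to E3 in red. P3 is highest for muscle, granulocyte and cell cycle genes, E2 replicate 2 (labelled E2 on the axis) is lowest for granulocyte, B lineage and cell cycle genes, and the osteoblast and osteocyte level of P2 lies among the E2 libraries.

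Genes of the interferon response were all below 0, 20 of 20, with a median of -0.27. Of them 2 were lower at an unadjusted p under 0.05 (4.22% of all genes). Mx2, an antiviral GTPase, had 1.02, 0.812, 3.06 and 1.13 CPM under placebo and 0.542, 0.315 and 0.460 CPM under E2 (-1.74 ± 0.51), with no overlap. Oas1a, a sensor of viral RNA, had 1.86, 1.22, 6.51 and 2.61 CPM against 1.51, 0.946 and 1.28 CPM (-1.28 ± 0.58). Both were highest in placebo replicate 3, and without that library 12 of 20 were below 0 and the median was -0.06, and without E2 replicate 2 the median was -0.15. Oxidative phosphorylation genes gave a similar picture, with 19 of 20 below 0 and a median of -0.21 that was -0.02 without placebo replicate 3 and 0.04 with the muscle level as a covariate, where 17 of 20 were above 0. Glycolysis genes had a median of -0.11, with the lactate transporter gene Slc16a1 at -0.51 ± 0.23, and a median of -0.05 without placebo replicate 3.

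**Figure D5:**
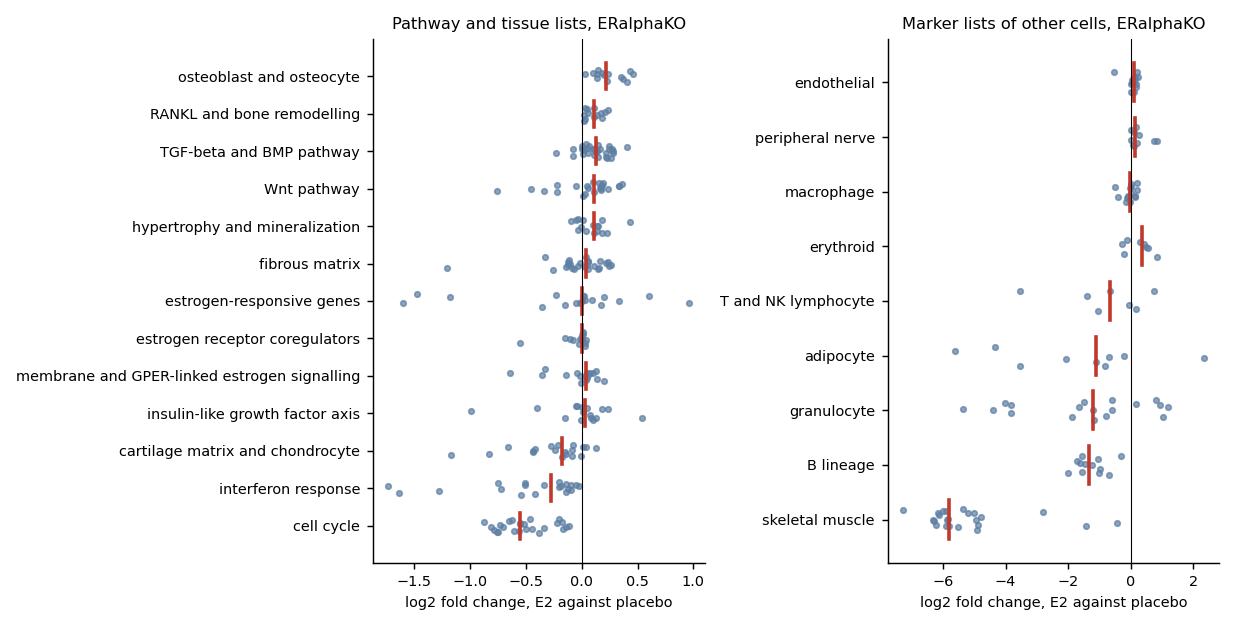
Log2 fold changes of E2 against placebo in ERalphaKO for each tested member of 13 pathway and tissue lists (left) and 9 lists of other cell types (right, wider x axis), with a red bar at each median. Osteoblast and osteocyte genes lie above 0 (median 0.21), cell cycle genes below (-0.55), and skeletal muscle markers lowest (-5.81).

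The product of the clock gene Arntl, BMAL1, drives the circadian oscillator. Arntl was the 1 member of 17 clock genes with an unadjusted p under 0.05 (5.7% of all genes). It had 17.9, 18.2, 19.6 and 12.6 CPM under placebo and 9.58, 7.67 and 7.97 CPM under E2 (-1.02 ± 0.43), with no overlap, and the authors' deposited table called it (-0.98, adjusted p = 0.00391). DESeq2 on all 12 libraries did not (adjusted p = 0.483). The median of the 17 was 0.12, and 0.31 without placebo replicate 4 or 0.014 without E2 replicate 2. The partner gene Npas2 gave -0.64 ± 0.57 and the repressor gene Per2, with 36.2 to 89.2 CPM against 67.9 to 112 CPM, 0.64 ± 0.50. In WT the Arntl values were 12.4 and 6.74 CPM under placebo and 31.8, 15 and 6.76 CPM under E2, a wide spread, and the difference between genotypes did not pass (-1.92 ± 0.67, edgeR adjusted p = 0.597). The hour of harvest is not in the sources used here.

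Immediate-early genes, which respond within minutes to stress and handling, followed 1 placebo library. Fos, a subunit of the transcription factor AP-1, had 71.0, 43.6, 34.1 and 406 CPM under placebo and 45.7, 43.9 and 32.2 CPM under E2 (-1.77 ± 0.91). Its highest value was in placebo replicate 4, and the other placebo libraries overlapped the E2 libraries. The 20 genes of the list had a median of -0.18 with 7 above 0, but without placebo replicate 4 the median was 0.27 with 15 above 0.

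The remaining pathway lists stood near 0. Genes of hypertrophy and mineralization, the last stage of the chondrocyte, had 11 of 16 above 0 (median 0.11). Bglap alone had an unadjusted p under 0.05 (5.7% of all genes). Several genes of this list, such as Bglap, Ibsp and Dmp1, were also osteoblast and osteocyte markers, so these counts are not independent. Without placebo replicate 3 the median was 0.015 and 8 of 16 were above 0, and without placebo replicate 2 it was 0.20 with 13. The hypertrophic collagen gene Col10a1 gave -0.05 ± 0.46. Matrix proteases and their inhibitors had 14 of 20 above 0 (median 0.04), and the membrane protease gene Mmp16 alone had an unadjusted p under 0.05 (0.32 ± 0.14, groups overlapping), while the collagenase gene Mmp13 gave 0.01 ± 0.13. The hedgehog and PTHrP loop, which paces chondrocyte maturation, had a median of 0.03 over 10 genes, with -0.03 ± 0.36 for its ligand gene Ihh and 0.04 ± 0.14 for the receptor gene Pth1r. The insulin-like growth factor axis also had a median of 0.03, over 16 genes. Inflammatory and NF-kB genes had 12 of 17 below 0 (median -0.15), but the NF-kB subunit gene Rela had 55.1 to 64.2 CPM under placebo and 65.5 to 71.5 CPM under E2 (0.17 ± 0.07), the only member with an unadjusted p under 0.05. Osteoclast markers had 9 of 10 above 0 (median 0.10) and 0 at that p, but without placebo replicate 1 or E2 replicate 3 the count was 5 of 10, with medians of 0.0026 and 0.013. Without E2 replicate 2 it was 10 of 10 with a median of 0.25. Most osteoclast markers, Ctsk and Acp5 among them, were also in the bone resorption list, so these counts are not independent. With 1 library left out at a time the median ran from 0.018 to 0.082 for the proteases, -0.06 to 0.12 for the hedgehog list, -0.02 to 0.08 for the growth factor axis and -0.19 to -0.0093 for the inflammatory list.

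Among the other marker lists, macrophage genes were level between the groups (15 tested, median -0.02, 0 at an unadjusted p under 0.05), with 279 to 360 CPM under placebo and 268 to 357 CPM under E2 for the receptor gene Csf1r. Without placebo replicate 3 the macrophage median was 0.09 with 11 of 15 above 0. Endothelial markers had 11 of 13 above 0 (median 0.11) and nerve markers 10 of 10 (median 0.15), and 0 of either list had an unadjusted p under 0.05. Without E2 replicate 1 these counts were 9 of 13, with a median of 0.06, and 6 of 10. B lineage markers were below 0 in 12 of 12 (median -1.35), with 1 lower at that p (4.22% of all genes). Without E2 replicate 1 there were 9 at that p, without placebo replicate 3 there were 8, and without E2 replicate 2 or 3 or placebo replicate 2 there were 0. The mean log2 CPM of the B lineage markers was 3.29 to 4.36 under placebo and 3.89, -0.50 and 2.36 in E2 replicates 1 to 3. In the 5 WT libraries it lay between -1.19 and -0.01, so that E2 replicate 2 was the ERalphaKO library in the WT range. T and NK lymphocyte markers had 5 of 7 below 0 (median -0.65). Of these, 2 were lower at that p (4.22% of all genes), or 4 without E2 replicate 1 and 0 without E2 replicate 2 or 3. Il7r, the interleukin-7 receptor gene, had 8.87 to 27.2 CPM under placebo and 13, 2 and 4.14 CPM under E2. The granulocyte median was -1.20 but 1.16 without placebo replicate 3 and -4.18 without E2 replicate 1, and the erythroid median was 0.36 but -2.48 without E2 replicate 3. Of the erythroid markers Hba-a1, Hba-a2, Hbb-b1 and Hbb-b2 were listed at 0 in all 7 libraries, and of the epithelial and salivary markers Prol1 and Smr2 were, with 2 of 12 of that list reaching a mean of 1 CPM. Adipocyte markers had a median of -1.11 (8 of 9 below 0), among them Plin4 of lipid droplets at 1.08, 3.02, 22.2 and 3.38 CPM against 0.204 to 0.482 CPM.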

How the data were processed

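The submitters' processing notes name bcl2fastq 2.17, TopHat and mouse build mm9. The sources used here give no counting tool, annotation or strand setting, so overlapping genes may share counts. The authors deposited whole-number counts per gene symbol for 23284 genes. Their comparison table of the ERalphaKO groups gave, per the file headers, a mean signal (size-factor scaled counts), log2 fold changes, a score (test statistic) and p-values.

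Counts were fitted in edgeR 4.0.16 (R 4.3.3) with TMM scaling, 1 mean per group over all 12 libraries and 8 residual degrees of freedom, after the group-wise filter with a minimum count of 10 (14832 genes). P-values were adjusted over all genes tested, with a threshold of 0.05. The biological coefficient of variation was 25.9%. SE and 95% intervals were derived from the p-value of the same test. CPM used the TMM library sizes, and log2 CPM a prior count of 2. DESeq2 1.42.0 was an alternative, as were other scaling, filters, covariates and omitted libraries. The scripts were tested on simulated data.

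Lists (32, with 478 of 512 members tested) and genes were chosen with earlier results of these data known. Named were the receptor genes, the 15 non-overlapping genes of at least 1 CPM with the smallest p in each direction, up to 3 members per list with an unadjusted p under 0.05 or else the 2 most counted, the 12 highest and 6 lowest WT responders, genes called by DESeq2 or the authors, and the 10 most abundant. Other genes named were chosen after their values were seen. Gper1 was found under its older symbol Gpr30, and some other symbols likewise. No sample was left out, and 2 libraries of a group were never near-identical. Intervals cover the spread between libraries only.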

Additional observations from a re-analysis of the deposited data

Results flagged for a closer look

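Of 149 values checked over the 4 ERalphaKO placebo libraries, 11 had 1 library far from the other 3 by Dixon's criterion at the 95% level, which chance meets in about 1 group in 20. Placebo replicate 3 stood apart for the endothelial list (mean log2 CPM of 5.376, others 5.101 to 5.139), Top2a (148 CPM, others 89.1 to 92.4), Ccnb2 (39.6 CPM, others 20.3 to 21.7), Dpysl2 (37.8 CPM, others 46.0 to 47.7), Bglap2 (339 CPM, others 390 to 399) and Fn1 (5430 CPM, others 11000 to 11800). Placebo replicate 4 stood apart for the immediate-early list (6.207, others 4.438 to 4.726), Arhgap29 (53.8 CPM, others 50 to 50.5) and Hcn4 (0.0804 CPM, others 0). Placebo replicate 2 did so for Gpr30 (16.9 CPM, others 11.1 to 11.9) and placebo replicate 1 for Limch1 (250 CPM, others 213 to 216).

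The E2 effect differed between the genotypes by the interaction test of edgeR for 8 genes. The log2 difference, ERalphaKO minus WT, was -5.847 for Greb1, -4.891 for Gbp8, -4.29 for Pi15, -4.21 for Trpc6, -3.662 for Gbp4, -2.014 for Thbs1, -1.674 for Whrn and 1.307 for Slc20a2.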

How the results depend on the processing

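The count of 0 called genes in ERalphaKO held under every edgeR setting tried, with the smallest adjusted p between 0.0630 (Fam129c, without placebo replicate 3 and E2 replicate 1, the libraries richest in granulocyte RNA) and 1. DESeq2 called 1 higher and 4 lower. The labels do not say that replicate numbers pair the samples, and same-numbered samples deviated together only in part (r = -0.25, 0.47 and -0.12). With the replicate number as a replicate block, fitted to the 7 ERalphaKO libraries, 68 genes were higher and 371 lower at an unadjusted p under 0.05 (207 and 491 in these 7 libraries without the block), the clock median was 0.34 and the epithelial median 0.053. Genes lower at that p numbered 350 with the muscle covariate and 352 to 801 without 1 library each. The genotype difference was called for 48 genes by DESeq2, 0 with the muscle or B lineage covariate, 20 with the granulocyte covariate and 0 to 21 without 1 library, WT libraries included, which were left out only for this count and after the data were seen. Genes called in WT numbered 157 higher and 89 lower by DESeq2, 36 higher with the muscle covariate, 23 lower with the granulocyte covariate, 30 higher and 7 lower with the B lineage covariate, and 23 to 52 higher and 4 to 13 lower without 1 ERalphaKO library. List medians that moved by more than the SD between replicates of the list's level were muscle (-0.078 with its covariate, which is built from the same genes), B lineage (-3.16 without both granulocyte-rich libraries, -2.95 to -0.82 without 1 library), T and NK lymphocyte (-1.80, -1.73 to -0.39, and -0.0010 with the B lineage covariate), endothelial (0.23 with that covariate), erythroid (-2.48 to 0.93 without 1 library) and adipocyte (-2.07 to -0.61).

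Among named genes, none of which edgeR called in ERalphaKO, the sign reversed by 1 SE or more with the B lineage covariate for Ncor1 (0.075), Pth1r (-0.11), Pmp22 (-0.028), Col3a1 (-0.18), Fmod (-0.16) and Bgn (-0.26), and with the muscle covariate for Lyz2 (0.39), Atp5b (0.057) and Atp5a1 (0.033). Without 1 library each the log2 fold change ran from -0.0096 to 0.23 for Cav1, -0.11 to 0.15 for Pth1r, -0.13 to 0.13 for Igfbp7, -1.41 to 0.71 for Lyz2, -0.028 to 0.16 for Pmp22, -0.10 to 0.35 for Mbp, -0.54 to 0.30 for Mgl2, -0.13 to 0.17 for Fmod and -0.18 to 0.21 for Bgn. The causes of these shifts were not tested. Depth limits genes under 1 CPM, above all in E2 replicate 2, where 3 counts stand at 0.309 CPM.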
